A study of Mus musculus with 40 samples.

Results

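The 49 genes described here are those of the count table whose symbols name succinate dehydrogenase subunits, cytochrome *c*, or the Uqcr, Cox4 to Cox8 and Atp5 families, out of 20295 genes. They comprise 4 genes of complex II (succinate dehydrogenase), 9 of complex III (the cytochrome *bc*1 complex), the somatic cytochrome *c* gene *Cycs*, 18 with Cox4 to Cox8 symbols for complex IV (cytochrome *c* oxidase) and 15 of complex V (ATP synthase). *Atp5s* and *Atp5sl*, which complete the set, carry the family symbol but encode no ATP synthase subunit, and *Cox7a2l*, counted with complex IV, encodes a relative of subunit 7a that takes part in supercomplexes. The subunits that mitochondrial DNA encodes do not fall under these symbols and are not described.

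Complex II passes electrons from succinate to ubiquinone, complex III passes them on to cytochrome *c*, and complex IV hands them to oxygen. Complexes III and IV pump protons, and complex V uses the proton gradient to make ATP. Brown adipocytes hold abundant respiratory chain and little ATP synthase, and UCP1 lets the protons return without ATP synthesis, so that the energy is released as heat. Several complex IV subunits exist as paired isoforms, among them the heart and muscle forms *Cox6a2*, *Cox7a1* and *Cox8b*, and *Cox7a1* and *Cox8b* are also known from brown fat.

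BAT came from 40 male mice kept at thermoneutrality (29 °C), in 8 groups of 5. In the first cohort, C-3BO mice (Gpr3 TTG crossed with *Ucp1*-Cre), in which the Gpr3 TTG allele at *Rosa26* expresses *Gpr3* from a CAG promoter once Cre has removed a stop cassette, were compared with control littermates carrying either the allele without Cre or Cre without the allele. These mice were 13 to 19 weeks old and ate chow, or HFD with 60 kcal% fat for 7 days. In the second cohort, mice labelled wildtype, which were control littermates of I-3BO mice and 15 weeks old, received CL-316,243 (CL, an agonist of the β3-adrenergic receptor) at 1 mg/kg or saline at 10 µL/g by daily intraperitoneal injection for 9 days. On HFD these injections began 2 days before the 7 days of diet. Tissue was taken on the day following the last CL injection, which the paper chose in order to assess chronic effects over acute ones. Because Cre was driven by *Ucp1*, brown and beige adipocytes of the whole body expressed the transgene from the time *Ucp1* was first active. CL reached the animal for days only. In whole tissue, fewer cells of a type and less RNA per cell cannot be told apart.

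Library totals ran from 849126 (HFD saline replicate 4) to 15260516 counts, and 3 counts, taken as the smallest detectable level, corresponded to 0.206 to 3.01 CPM (read counts relative to the TMM-scaled library size, the usual CPM), which covers counting error only. *Gpr3* had 266 to 463 CPM in chow C-3BO and 688 to 919 CPM in HFD C-3BO mice, and reached at most 0.744 CPM in their controls. *Ucp1* of chow CL replicate 5 was 1645 CPM, within the chow saline range of 1268 to 1866 CPM, while the other chow CL mice had 5946 to 8990.5 CPM. All 10 brown adipocyte markers listed for the check were counted in every library. The 12 libraries of HFD saline mice, HFD CL mice and HFD C-3BO replicates 4 and 5 held 84.3 to 401 CPM of summed liver markers against 0.775 to 4.17 CPM in the other 28, and 8.02 to 58.9 against 0 to 0.43 CPM of summed testis and epididymis markers. In the injected mice, diet and this set of libraries cannot be told apart. Summed skeletal muscle markers reached 984 to 11948 CPM in control mice on chow, 487 to 4717 in chow C-3BO, 14.7 to 3132 in chow saline and 23.1 to 2591 in HFD saline mice, against 6.48 to 278 in HFD control, 7.79 to 93.2 in HFD C-3BO, 15.3 to 176 in chow CL and 36.4 to 872 in HFD CL mice.

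The question behind each comparison was how the drug and the receptor shifted these transcripts, on each diet. Counts were tested with edgeR's quasi-likelihood test over all 13277 genes that passed the filter, p-values were adjusted by Benjamini-Hochberg, and a gene was called higher or lower at an adjusted p under 0.05. Of the 49 genes, 47 passed the filter on low counts. *Cox7b2*, a testis form of subunit 7b, had 2 counts in 1 library and *Cox8c*, another subunit 8 gene, 1 count in each of 2 libraries, and neither was tested.

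With CL on chow, 19 of the 47 genes rose and 1 fell, with a median log2 fold change of 0.28. Over all tested genes, 9.16% rose and 6.13% fell, with a median of -0.01. With CL on HFD, 16 rose and 0 fell (median 0.24), against 12.7% and 10.8% of all tested genes. None of the 47 fell at an unadjusted p under 0.05 either, nor with DESeq2. In C-3BO mice on chow, 4 rose and 6 fell (median -0.13), against 15.8% and 15.9% of all tested genes, a share of the 47 below the background in both directions. In C-3BO mice on HFD, 26 rose and 1 fell (median 0.32), against 19.3% and 15.5%. The 6 falls in chow C-3BO mice became 10 without chow C-3BO replicate 3, and 1 to 3 without chow control replicate 1, 3 or 4 or chow C-3BO replicate 1, 2, 4 or 5. The fall with CL on chow, that of *Cox6a2*, became 0 without chow saline replicate 1 or chow CL replicate 3 or 5, and 2 genes fell without chow saline replicate 4.

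The 49 genes together took 4.25 ± 0.387% (SD, n = 5) of all counts in control mice fed chow, 3.87 ± 0.321% in C-3BO mice fed chow, 3.89 ± 0.381% in control mice fed HFD and 4.66 ± 0.231% in C-3BO mice fed HFD. For the injected mice their share was 3.53 ± 0.399% with saline and 4.11 ± 0.244% with CL on chow, and 3.62 ± 0.11% with saline and 4.34 ± 0.135% with CL on HFD (each SD, n = 5). These shares depend on library totals alone. With totals in place of TMM factors, the all-gene median log2 fold change moved to -0.23 for C-3BO on chow, -0.19 for C-3BO on HFD, and -0.15 and -0.15 for CL on chow and HFD. The members called higher and lower were then 12 and 3 for CL on chow, 2 and 27 for C-3BO on chow, and 14 and 1 for C-3BO on HFD. The balance for C-3BO on chow depended on the scaling, and the values below are relative to the TMM scale.

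**Figure D1:**
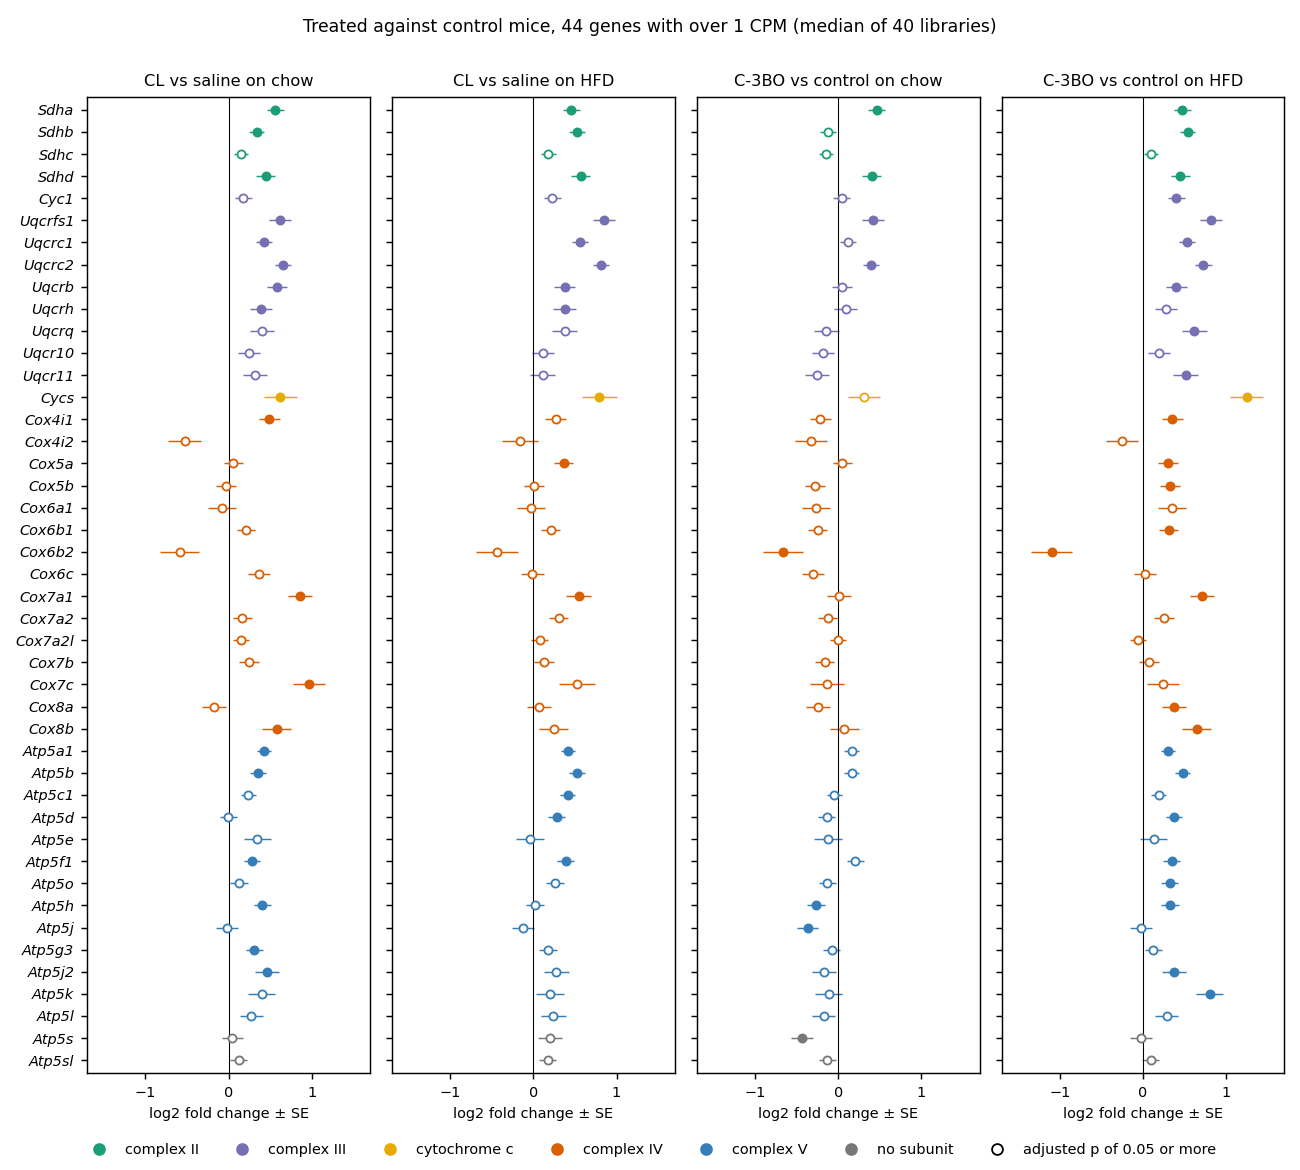
Log2 fold change with its standard error (x axis) of 44 of the 47 tested genes (y axis, coloured by complex) in the 4 comparisons of treated with control mice, 5 mice a group, with filled points at an adjusted p under 0.05. *Cox6a2*, *Atp5g1* and *Atp5g2*, with medians under 1 CPM, are left out. Most points of complexes II and III lie to the right of 0 in the CL panels and in the panel of C-3BO on HFD, and for C-3BO on chow 4 filled points lie to the right and 4 to the left (*Cox6b2*, *Atp5h*, *Atp5j* and *Atp5s*).

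Levels between genes were compared per kilobase of counted exon, as the median over the 40 libraries. The most abundant transcript was *Atp5b* (RefSeq NM_016774, chr10:127520363-127527444 on the plus strand of mm9), the catalytic β subunit of ATP synthase, at 4719 CPM per kb. *Cox6a1*, the common form of subunit 6a, led complex IV with 2749, next to *Cox8b* with 2709 and *Cox4i1* with 2321. *Uqcrq*, a small complex III subunit, had 1848, and *Sdha*, the flavoprotein that oxidises succinate, led complex II with 1345 CPM per kb. *Cycs* (RefSeq NM_007808, chr6:50512562-50516473 on the minus strand of mm9) stood at only 6.88 CPM per kb, a level far below those of the complexes between which its product carries electrons.

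Several of the low values belong to genes whose transcript sequence recurs elsewhere in the genome. Each transcript was cut into windows of 50 bases, and the share of windows with an exact match at another place in mm9 was counted. It was 100% for *Atp5g2*, 89.4% for *Atp5l* (subunit g), 73.8% for *Atp5g1*, 72.9% for *Atp5h* (subunit d), 67.7% for *Uqcrb*, 62.7% for *Cox5b*, 54.3% for *Cox7a2l*, 48.2% for *Cox7c*, 42.2% for *Atp5f1*, 41.2% for *Uqcr11*, 39.9% for *Atp5k* and 38.6% for *Cycs*. Of these, *Uqcr11* had 524, *Atp5k* 326 and *Atp5f1* 315 CPM per kb. The 12 tested subunit genes with over 35% of such windows had a median of 151 CPM per kb (range 0.485 to 524). The 24 with under 5% had 1004 CPM per kb (range 1.42 to 4719), and the 9 in between had 759.9 CPM per kb (range 213 to 2749). How the counting treated reads with several matches is not given in the sources used here, so the levels of these genes are uncertain, and the part of repeats in them was not tested. Not every low gene is of this kind: *Cox4i2*, *Cox6b2* and *Cox6a2*, minor isoforms, had no repeated window. Members of the isoform families and their copies may exchange reads, so values of *Atp5g1* and *Atp5g2* in particular are uncertain.

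**Figure D2:**
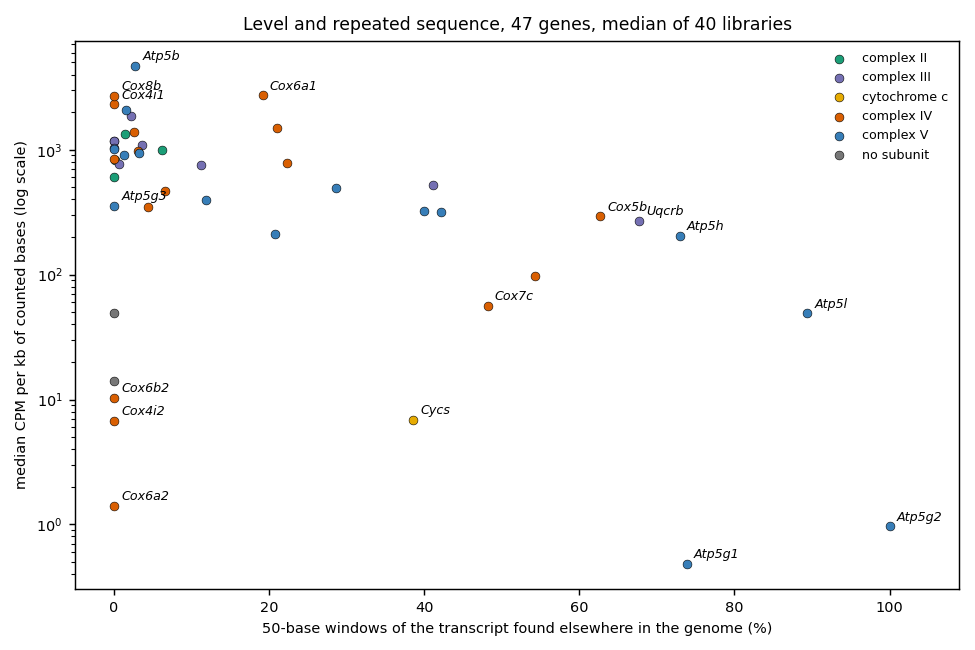
Median level over 40 libraries in CPM per kb of counted bases (y axis, log scale) against the percent of 50-base transcript windows with an exact match elsewhere in mm9 (x axis), 1 point for each of the 47 tested genes, coloured by complex. *Atp5g2* (100%) and *Atp5g1* (73.8%) lie lowest, while *Atp5b*, *Cox6a1*, *Cox8b* and *Cox4i1* lie at the top with at most 19.2%.

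In complex II, 3 of 4 genes rose with CL on each diet, the same number rose in C-3BO mice fed HFD, and 2 rose in those fed chow. For each complex, the shares of all tested genes that rose were 9.16% with CL on chow and 12.7% with CL on HFD. They were 15.8% in chow C-3BO and 19.3% in HFD C-3BO mice. *Sdha* (RefSeq NM_023281, chr13:74459703-74487688 on the minus strand of mm9) had 3388, 3837, 3034, 3033 and 3229 CPM in chow control mice and 4629, 4492, 4938, 4358 and 4326 CPM in chow C-3BO mice, and the 2 groups did not overlap. Its log2 fold change was 0.46 (SE 0.10, adjusted p = 0.000615) on chow and 0.47 (SE 0.10, adjusted p = 0.000392) on HFD. With CL it was 0.56 (SE 0.10, adjusted p = 0.000175) on chow and 0.46 (SE 0.10, adjusted p = 0.00102) on HFD. In each of the 4 comparisons all 5 treated mice lay above all 5 controls. *Sdhd*, a membrane anchor, was also called higher in all 4, at 0.40, 0.45, 0.45 and 0.57 in the same order. *Sdhc*, the other anchor, was called in none of the 4 (-0.15, 0.10, 0.15 and 0.18), with the smallest difference of the complex in HFD C-3BO mice.

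*Sdhb* (RefSeq NM_023374, chr4:140517186-140535107 on the plus strand of mm9), the iron-sulphur subunit that takes electrons from *Sdha*, was called in 3 of the 4 comparisons. Chow control mice had 1234, 1171, 1349, 1238 and 1111 CPM and chow C-3BO mice 1132, 1055, 1403, 1012 and 1007 CPM, overlapping ranges with a log2 fold change of -0.12 (SE 0.09, adjusted p = 0.326). On HFD, control mice had 698 to 999.96 CPM and C-3BO mice 1098, 1403, 1207, 1214 and 1251 CPM, without overlap and with a log2 fold change of 0.54 (SE 0.09, adjusted p = 1.95e-05). The diet difference of the C-3BO effect (HFD less chow) was 0.66 (SE 0.13, adjusted p = 0.00333). CL raised *Sdhb* on both diets, by 0.34 on chow and 0.53 on HFD, and the C-3BO effect on chow was below the CL effect, with a difference of -0.46 (SE 0.13, adjusted p = 0.0279). That last call was lost without any 1 of 11 libraries (chow control 1, 3 and 4, chow C-3BO 2, 4 and 5, chow saline 1, 2 and 3, chow CL 1 and 5), with the value between -0.44 and -0.40.

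In complex III, 5 of 9 genes rose with CL on each diet, 2 rose in C-3BO mice on chow and 7 in C-3BO mice on HFD. The 2 rises in chow C-3BO mice are near the 15.8% of all tested genes. *Uqcrfs1* (RefSeq NM_025710, chr13:30632181-30637185 on the minus strand of mm9), the Rieske iron-sulphur protein that takes electrons from ubiquinol, had 747, 809, 1109, 1309 and 1265 CPM in HFD control mice and 1952, 1977, 1830.4, 1866 and 1644 CPM in HFD C-3BO mice. With HFD saline it had 801, 809.5, 839.9, 849 and 1112 CPM and with HFD CL 1681, 1534, 1587, 1593 and 1562 CPM. Every treated mouse on HFD lay above every control mouse of its cohort. The log2 fold change was 0.82 (SE 0.13, adjusted p = 7.01e-06) in C-3BO mice and 0.85 (SE 0.13, adjusted p = 9.46e-06) with CL on HFD, and 0.42 (SE 0.13, adjusted p = 0.0132) and 0.61 (SE 0.13, adjusted p = 0.00123) on chow. On chow, control replicate 3 with 1626 CPM lay within the C-3BO range, and without control replicate 5 the chow call in C-3BO mice was lost (adjusted p = 0.0511), as it was with library totals alone.

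*Uqcrc2* (RefSeq NM_025899, chr7:127778703-127803037 on the plus strand of mm9), a core protein of the complex, rose in all 4 comparisons as well, by 0.65 and 0.81 with CL on chow and HFD and by 0.39 and 0.73 in C-3BO mice on chow and HFD (adjusted p from 1.2e-07 to 0.00199). Its level was 1317, 1297, 1624, 1325 and 1307 CPM in chow C-3BO against 914 to 1136 CPM in chow control mice, with no overlap. *Uqcrc1*, the other core protein, rose with CL (0.43 and 0.56) and in HFD C-3BO mice (0.53), and was at 0.11 in chow C-3BO mice (adjusted p = 0.373). *Cyc1*, cytochrome *c*1, which hands electrons to cytochrome *c*, was called only in HFD C-3BO mice (0.40, SE 0.10, adjusted p = 0.00161), with 0.18 and 0.23 for CL on chow and HFD.

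Among the small subunits, *Uqcrb* rose with CL on chow (0.58) and HFD (0.38) and in HFD C-3BO mice (0.40), and *Uqcrh* rose with CL on chow (0.39) and HFD (0.38). In HFD C-3BO mice *Uqcrh* was at 0.28 (SE 0.14, adjusted p = 0.111), and its C-3BO less CL difference there was -0.10 (SE 0.19, adjusted p = 0.893). *Uqcrq* had 416, 565, 634, 825 and 763 CPM in HFD control mice and 938, 1135, 1043, 834 and 966 CPM in HFD C-3BO mice, which did not overlap, and a log2 fold change of 0.62 (SE 0.15, adjusted p = 0.0012). On chow its ranges overlapped (1016 to 1475 CPM in control mice, 934 to 1629 CPM in C-3BO mice), and the difference between the diets was 0.76 (SE 0.21, adjusted p = 0.0442). This call held without chow control 2 or 5, chow C-3BO 3 or HFD control 4 or 5, and was lost without any 1 of the other 15 libraries, with a lowest value of 0.61 without HFD control replicate 1. *Uqcr11*, with 41.2% repeated windows, showed a difference between diets of 0.77 (SE 0.21, adjusted p = 0.0393). *Uqcr10* had the smallest change of the complex in HFD C-3BO mice (0.20, SE 0.13, adjusted p = 0.254) and was called in none of the 4 comparisons.

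*Cycs*, whose product carries electrons between complexes III and IV, showed the largest rise of the 47 genes in HFD C-3BO mice. The level was 11.02, 9.34, 14.8, 19.7 and 9.3 CPM in HFD control mice and 27.8, 30.2, 26.7, 38.5 and 31.1 CPM in HFD C-3BO mice, without overlap, for a log2 fold change of 1.25 (SE 0.20, adjusted p = 5.71e-06). With CL it rose by 0.62 (SE 0.20, adjusted p = 0.0289) on chow, where saline mice had 8.76 to 14.7 and CL mice 17.3 to 21.4 CPM, and by 0.79 (SE 0.21, adjusted p = 0.00487) on HFD, where they had 9.03 to 26.4 and 25.1 to 34.9 CPM. Only HFD saline replicate 5, at 26.4 CPM, lay within the HFD CL range. In chow C-3BO mice the change was 0.31 (SE 0.19, adjusted p = 0.232), and the difference between the diets, 0.94 (SE 0.28, adjusted p = 0.0622), did not pass the test. The call with CL on chow was lost without chow saline replicate 3 or 5 or chow CL replicate 2, 3 or 4, with a lowest value of 0.51 and adjusted p up to 0.0846. The repeated windows given above apply to each of these values.

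In complex IV, 16 genes were tested. With CL on chow 4 rose and 1 fell, with CL on HFD 2 rose, in chow C-3BO mice 2 fell, and in HFD C-3BO mice 7 rose and 1 fell. Over all tested genes, 12.7% rose with CL on HFD. The shares that fell were 6.13% with CL on chow, 15.9% in chow C-3BO and 15.5% in HFD C-3BO mice. The 2 rises with CL on HFD and the falls of complex IV lie near or below these shares. *Cox4i1* (RefSeq NM_009941, chr8:123192125-123198109 on the plus strand of mm9), the common form of subunit 4, had 1374, 1203, 1202, 1478 and 1925 CPM in chow saline and 2184, 2029, 1851, 1928 and 2091 CPM in chow CL mice, a log2 fold change of 0.49 (SE 0.13, adjusted p = 0.00667). Saline replicate 5 lay within the CL range. In chow C-3BO mice *Cox4i1* was at -0.22 (SE 0.13, adjusted p = 0.192) and in HFD C-3BO mice at 0.35 (SE 0.13, adjusted p = 0.0281), a call lost without HFD control replicate 1 or 2 or HFD C-3BO replicate 2 (adjusted p up to 0.0909). The C-3BO less CL difference on chow was -0.71 (SE 0.18, adjusted p = 0.0131). Chow C-3BO replicate 3, at 2543 CPM, stood above the other 4 mice of its group (1479.9 to 1776 CPM), and without it *Cox4i1* was lower in chow C-3BO mice (-0.34, adjusted p = 0.0296).

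Subunits 5a and 5b, which bind the matrix side of the catalytic core, both rose in HFD C-3BO mice (*Cox5a* 0.30, *Cox5b* 0.32), and *Cox5a* also rose with CL on HFD (0.36). *Cox6b1*, the common form of subunit 6b, rose in HFD C-3BO mice by 0.31 (SE 0.11, adjusted p = 0.0299). *Cox6b2*, its testis form, went the other way and was the single gene of the 47 that fell there, at -1.10 (SE 0.25, adjusted p = 0.000613), with 9.87, 7.65, 9.35, 5.99 and 11.4 CPM in HFD control and 3.54, 6.32, 2.81, 4.48 and 3.28 CPM in HFD C-3BO mice. C-3BO replicate 2 lay within the control range. *Cox6b2* also fell in chow C-3BO mice (-0.66, SE 0.24, adjusted p = 0.0324), a call lost without chow control replicate 1, 3 or 4 or chow C-3BO replicate 2 or 5, and was at -0.59 and -0.43 with CL on chow and HFD (adjusted p = 0.0897 and 0.229). *Cox7c* rose with CL on chow by 0.97 (SE 0.20, adjusted p = 0.00061), from 15.2, 16.4, 16.3, 22.1 and 39.98 CPM to 49.9, 40.7, 40.3, 41.2 and 43.9 CPM, with saline replicate 5 just below the lowest CL mouse, and its C-3BO effect on chow was below the CL effect (-1.10, SE 0.28, adjusted p = 0.0133). *Cox6c* differed between C-3BO and CL on chow as well (-0.67, SE 0.19, adjusted p = 0.0262), while *Cox7b* and *Cox7a2l* were called in none of the 4 comparisons.

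**Figure D3:**
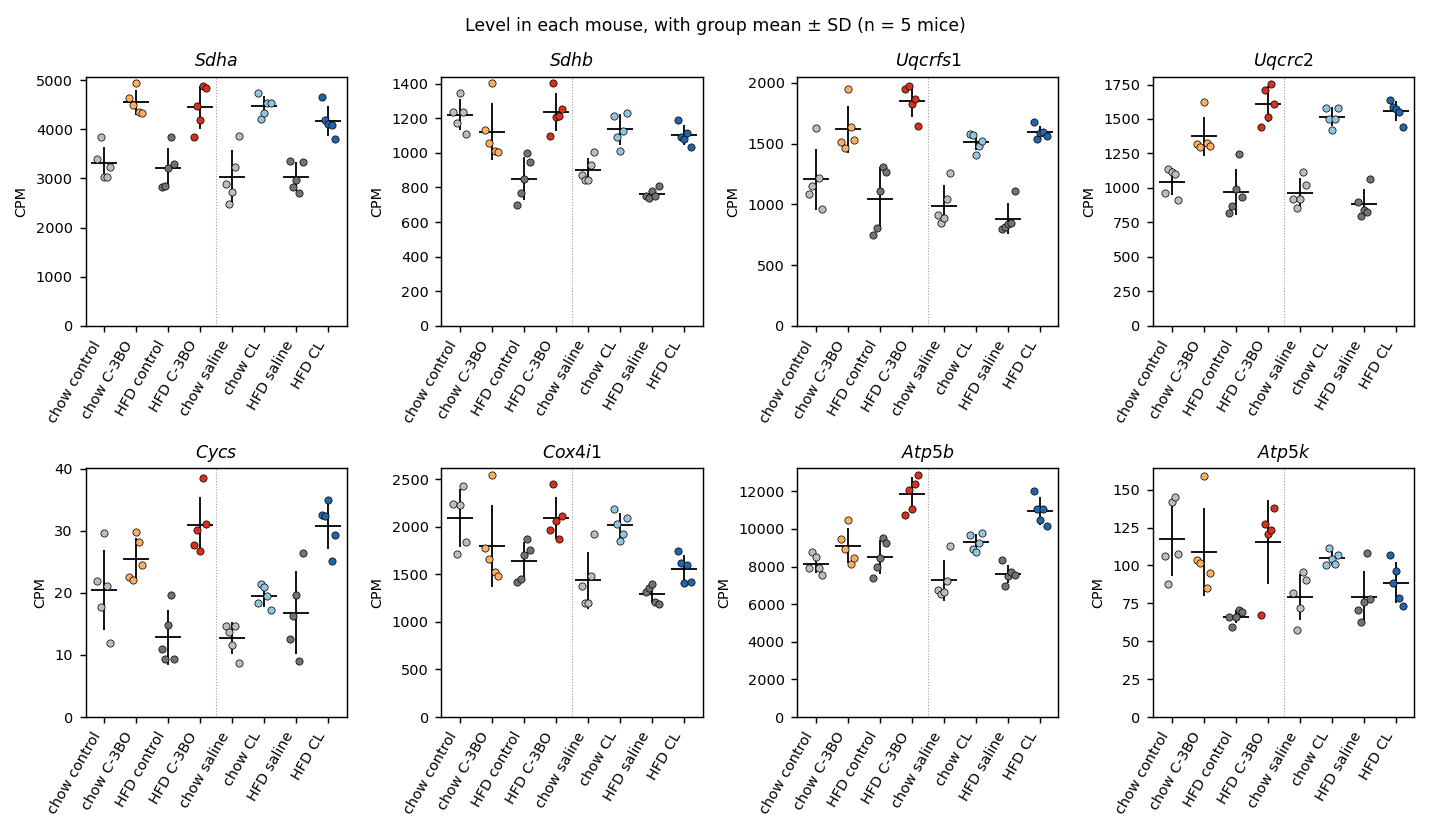
CPM of 8 genes (y axes, from 0) in each of the 40 mice, by group (x axis), with bars for the group mean ± SD of 5 mice and a dotted line between the cohorts. *Sdha* and *Uqcrc2* of treated mice lie above their controls on both diets, whereas *Sdhb*, *Cox4i1* and *Atp5k* of chow C-3BO mice overlap with chow control mice.

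Isoform pairs of complex IV were compared as log2 ratios of counts within each library, with 0.5 added to each count, which do not depend on library scaling. In 5 against 5 mice the two-sided exact permutation test cannot go below p = 0.00794, and p-values were adjusted over 12 tests, 3 pairs in 4 comparisons. *Cox7a1* (RefSeq NM_009944, chr7:30969190-30971049 on the plus strand of mm9) and *Cox7a2* encode the muscle and liver forms of subunit 7a. Their log2 ratio was -0.52, -0.32, -0.40, -0.47 and -0.19 in chow saline mice and 0.31, 0.14, 0.30, 0.36 and 0.48 in chow CL mice, with no overlap. The difference was 0.70 (exact p = 0.00794, adjusted p = 0.0238). On HFD it was 0.23 (exact p = 0.0159, adjusted p = 0.0381) with CL and 0.45 (exact p = 0.00794, adjusted p = 0.0238) in C-3BO mice, and on chow 0.15 (exact p = 0.0873, adjusted p = 0.131) in C-3BO mice. *Cox7a1* itself rose by 0.86 and 0.55 with CL on chow and HFD and by 0.71 in C-3BO mice fed HFD, with 292, 496, 419, 451 and 438 CPM against 202, 219.97, 259, 331 and 272 CPM in HFD control mice, overlapping through C-3BO replicate 1. In chow C-3BO mice it was at 0.01 (SE 0.15, adjusted p = 0.979), and its C-3BO effect on chow was below the CL effect (-0.85, SE 0.21, adjusted p = 0.0102). *Cox7a2* was called in none of the 4 comparisons. Among chow control mice the ratio was highest in replicates 3 and 4 (0.15 and 0.08), which had the most muscle markers (11948 and 11168 CPM). It was -0.14 in replicate 1 (984 CPM) and lowest, at -0.18, in replicate 2 (5680 CPM). The part of muscle in the chow C-3BO values was not tested.

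*Cox8b* and *Cox8a* encode the muscle and common forms of subunit 8. The log2 ratio was -0.41 ± 0.23 (SD, n = 5) in chow saline mice and 0.34 ± 0.06 (SD, n = 5) in chow CL mice, and all CL mice lay above all saline mice. The difference was 0.75 (exact p = 0.00794, adjusted p = 0.0238). For HFD with CL the value was 0.16 (exact p = 0.214, adjusted p = 0.234), in C-3BO mice on chow 0.32 (exact p = 0.0397, adjusted p = 0.068) and in C-3BO mice on HFD 0.27 (exact p = 0.103, adjusted p = 0.138), none of which passed. Among chow control mice this ratio too was highest in replicates 3 and 4 (-0.23 and 0.10). It was lowest, at -0.56, in replicate 1, which had the fewest muscle markers. The part of muscle in the chow C-3BO value was not tested. *Cox8b* rose with CL on chow (0.58, SE 0.17, adjusted p = 0.0186) and in HFD C-3BO mice (0.64, SE 0.17, adjusted p = 0.0035), and without HFD C-3BO replicates 4 and 5 the second call was lost (0.45, adjusted p = 0.0827). The first was lost without chow saline replicate 1, 2 or 3, with a lowest value of 0.48. *Cox8a* was at -0.18 for CL under chow and rose in HFD C-3BO mice by 0.37 (SE 0.14, adjusted p = 0.0418), a call that was also lost without those 2 replicates (0.17, adjusted p = 0.457), and without HFD control replicate 1, 2 or 3 or HFD C-3BO replicate 4 or 5 alone.

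*Cox4i2* (RefSeq NM_053091, chr2:152579909-152590773 on the plus strand of mm9), the lung form of subunit 4, which is known to be induced by hypoxia, stayed rare, with 4.91 CPM against 1727 CPM of *Cox4i1* as medians over the 40 mice. Its log2 ratio to *Cox4i1* was -8.37, -7.68, -7.75, -8.68 and -8.67 in chow saline mice and -9.42, -9.51, -9.31, -8.84 and -9.26 in chow CL mice. All CL mice lay below all saline mice, and the difference was -1.04 (exact p = 0.00794, adjusted p = 0.0238). In HFD C-3BO mice it was -0.60 (exact p = 0.0238, adjusted p = 0.0476), with -0.37 (exact p = 0.167, adjusted p = 0.2) for CL on HFD and -0.08 (exact p = 0.77, adjusted p = 0.77) for C-3BO on chow. The call in HFD C-3BO mice was lost without replicates 4 and 5 of that group (-0.64, adjusted p = 0.122). It was also lost without HFD control replicate 1 or HFD C-3BO replicate 1, 3 or 5 alone (adjusted p = 0.0635 in each case). *Cox4i2* by itself was called in none of the 4 comparisons (-0.53, -0.16, -0.33 and -0.25 for CL on chow and HFD and C-3BO on chow and HFD).

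**Figure D4:**
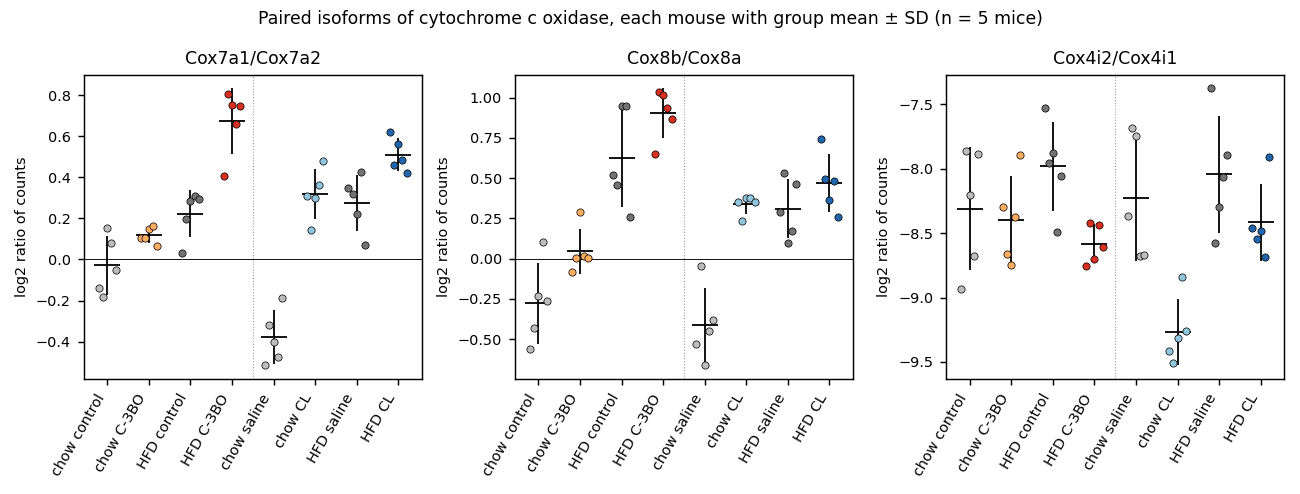
Log2 ratio of counts (y axes) of 3 isoform pairs of cytochrome *c* oxidase in each of the 40 mice, by group (x axis), with bars for the mean ± SD of 5 mice. The *Cox7a1* to *Cox7a2* ratio of chow saline mice lies below 0 in all 5 mice and that of chow CL mice above 0 in all 5, and for *Cox4i2* to *Cox4i1* the chow CL mice lie below all chow saline mice.

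*Cox6a2* (RefSeq NM_009943, chr7:135348949-135349880 on the minus strand of mm9), the heart and muscle form of subunit 6a, moved with skeletal muscle transcripts. It had 2.98, 24.7, 73.6, 67.9 and 43.8 CPM in chow control mice, 1.06, 20.6, 10.8, 8.97 and 18.5 CPM in chow C-3BO mice, and at most 1.55 CPM in HFD control and 0.615 CPM in HFD C-3BO mice. In chow saline mice it had 10.4, 0.223, 0, 3.05 and 3.49 CPM, in chow CL mice at most 0.475 CPM, and among HFD saline mice it was highest in replicate 3 with 10.3 CPM, the mouse with the most muscle markers of that group (2591 CPM). Its log2 fold change was -3.74 (SE 1.19, adjusted p = 0.0276) with CL on chow and -1.82 (SE 0.70, adjusted p = 0.0433) in chow C-3BO mice. With the muscle marker level as a covariate these became 0.20 and 0.14, and neither was called. The first call was also lost without chow saline replicate 1 (-2.79) or chow CL replicate 3, 4 or 5, and the second with DESeq2 (adjusted p = 0.294) and without any 1 of 6 libraries. Because 24 of the 40 mice had under 10 counts of *Cox6a2*, its ratio to *Cox6a1* was not tested. *Cox6a1* was called in none of the 4 comparisons (-0.08, -0.02, -0.27 and 0.35 in the order CL on chow, CL on HFD, C-3BO on chow and C-3BO on HFD).

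In complex V, 6 of 15 genes rose with CL on chow and 5 with CL on HFD, 3 fell in chow C-3BO mice, and 8 rose in HFD C-3BO mice. The 3 falls are near the 15.9% of all tested genes. In the F1 head, *Atp5b* had 7369, 7966, 8449.8, 9523 and 9240.5 CPM in HFD control mice and 10769, 12096, 11037, 12419 and 12886 CPM in HFD C-3BO mice. These groups did not overlap, and the log2 fold change was 0.48 (SE 0.09, adjusted p = 0.000116). With CL it rose by 0.53 (SE 0.09, adjusted p = 6.06e-05) on HFD and 0.36 (SE 0.09, adjusted p = 0.00742) on chow, while in chow C-3BO mice it was at 0.16 (SE 0.09, adjusted p = 0.184). The call with CL on chow was lost in a fit of only the libraries of that comparison (0.34, adjusted p = 0.101). *Atp5a1*, the α subunit, followed with 0.43 and 0.42 for CL on chow and HFD and 0.30 in HFD C-3BO mice, each called. *Atp5d*, the δ subunit of the head, rose on HFD in CL mice (0.28) and C-3BO mice (0.37), and its C-3BO effect differed between the diets (0.51, SE 0.14, adjusted p = 0.0476).

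In the stalk and membrane part, *Atp5f1* (subunit b) rose with CL on chow (0.28) and HFD (0.39) and in HFD C-3BO mice (0.34). *Atp5h* had 146, 124, 170.2, 190.1 and 131 CPM in chow control and 120.01, 110.01, 167, 121 and 115 CPM in chow C-3BO mice, overlapping through C-3BO replicate 3. It fell there by a small amount (-0.27, SE 0.11, adjusted p = 0.0485) and rose in HFD C-3BO mice (0.33, SE 0.11, adjusted p = 0.0155). Its C-3BO effect differed by 0.59 (SE 0.15, adjusted p = 0.0236) between HFD and chow, and the C-3BO less CL difference on chow was -0.67 (SE 0.15, adjusted p = 0.00466). The call of the diet difference was lost without any 1 of 7 libraries (chow control 3 and 4, chow C-3BO 2 and 5, HFD control 1 and 2, HFD C-3BO 5), with a lowest value of 0.48. The call of the fall on chow was lost without any 1 of 7 libraries (chow control replicates 1, 3 and 4, chow C-3BO replicates 1, 2, 4 and 5), with the smallest value without chow control replicate 4 (-0.16). The call of the rise on HFD was lost without HFD C-3BO replicates 4 and 5 (0.30, adjusted p = 0.0664), without replicate 5 alone and without HFD control replicate 1. *Atp5j*, coupling factor 6, also fell in chow C-3BO mice (-0.37), as did *Atp5s* (-0.43), a relative of factor B. *Atp5c1*, the γ subunit, rose with CL on HFD (0.41), *Atp5o*, which links head and stalk, in HFD C-3BO mice (0.32), and *Atp5j2*, subunit f, with CL on chow (0.47) and in HFD C-3BO mice (0.37). *Atp5e*, *Atp5l* and *Atp5sl* were called in none of the 4 comparisons.

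*Atp5k* (RefSeq NM_007507, chr5:108862272-108863397 on the minus strand of mm9), subunit e, which joins ATP synthase dimers, had the largest rise of the complex in HFD C-3BO mice. Its level was 65.7, 59.3, 65.8, 70.8 and 69.3 CPM in HFD control mice and 67.1, 127, 121, 123 and 138 CPM in HFD C-3BO mice, where replicate 1 lay within the control range. The log2 fold change was 0.80 (SE 0.16, adjusted p = 0.000196), and the difference between the C-3BO effects on HFD and chow was 0.91 (SE 0.23, adjusted p = 0.0234). The call of this difference was also lost without any 1 of 7 libraries (chow control 3 and 4, chow C-3BO 4 and 5, HFD control 2, HFD C-3BO 4 and 5), with a lowest value of 0.81, and 39.9% of the windows of *Atp5k* are repeated. The genes of subunit c, which forms the rotor ring, differed in level: *Atp5g3* had a median of 239 CPM over the 40 mice, *Atp5g2* 0.626 and *Atp5g1* 0.387 CPM. *Atp5g3* rose with CL on chow (0.31, SE 0.10, adjusted p = 0.0375), a call lost without any 1 of 7 libraries (chow saline replicates 1, 2 and 3, chow CL replicates 1 to 4). *Atp5g1* had 1.24, 2.03, 4.48, 4.31 and 3.33 CPM in chow control and 0, 0.579, 2.15, 0.332 and 1.00 CPM in chow C-3BO mice and was called lower (-1.88, SE 0.69, adjusted p = 0.0331). This call was lost with DESeq2 (adjusted p = 0.064), with the muscle marker covariate (-1.33, adjusted p = 0.128) and without any 1 of 6 libraries (chow control replicates 3, 4 and 5, chow C-3BO replicates 1, 2 and 4). In HFD C-3BO mice *Atp5g1* had at most 0.82 CPM, and its change there was the lowest of the complex without passing the test (-1.34, SE 1.10, adjusted p = 0.359). The ratios of *Atp5g1* to *Atp5g2* and *Atp5g3* were not tested, as 38 and 32 of the 40 mice had under 10 counts of the rarer gene.

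The change of diet itself was compared within each kind of mouse, and these comparisons share their mice with those above. In control mice, 28 of the 47 genes were lower on HFD than on chow and 0 higher, against 17.5% and 15.4% of all tested genes. The count of 0 held at an unadjusted p under 0.05 and with DESeq2. In C-3BO mice 3 were lower and 5 higher (12.2% and 13.5% of all genes). Saline mice had 12 lower and 0 higher (8.04% and 7.45%, with 2 higher at an unadjusted p under 0.05 and 0 with DESeq2), and CL mice 16 lower and 1 higher (12.7% and 10.9%). With library totals alone, the counts lower and higher became 25 and 1 in control, 1 and 14 in C-3BO, 3 and 4 in saline and 7 and 4 in CL mice, while the median of all genes moved to 0.15, 0.21, 0.16 and 0.16 in the same order of mice. The counts moved by over 1.5 times without single libraries in 3 of these comparisons. In C-3BO mice the lower count was 1 without chow C-3BO replicate 3, 6 without replicate 4 and 5 without replicate 5 or HFD C-3BO replicate 5, and the higher count was 2 or 3 without chow C-3BO replicate 1, 2, 4 or 5 or HFD C-3BO replicate 2, 3, 4 or 5. In saline mice the lower count was 6 without chow saline replicate 4 and 7 without chow saline replicate 5 or HFD saline replicate 2, and in CL mice it was 8 without chow CL replicate 1.

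In control mice *Cox6a2* (-7.50) and *Atp5g1* (-2.87), both rare, had the lowest values on HFD, followed by small subunits of complexes III and IV. *Cox8a* went from 1446, 985, 1222, 1379.9 and 1082 CPM on chow to 501, 562, 546, 648 and 842 CPM on HFD, a log2 fold change of -0.98 (SE 0.14, adjusted p = 1.89e-06) without overlap. *Cox6a1* was at -0.97 (SE 0.17, adjusted p = 2.2e-05), *Uqcrq* at -0.95 (SE 0.15, adjusted p = 4.74e-06) and *Cox5b* at -0.94 (SE 0.12, adjusted p = 2.13e-07). Of the large subunits, *Sdha* was at -0.04, *Atp5b* at 0.06 and *Uqcrc2* at -0.11. *Uqcrc1*, also a large subunit, was lower in control mice on HFD (1214 to 1746 CPM) than on chow (1923 to 2219 CPM), without overlap. *Cycs* fell in control mice (-0.67, SE 0.20, adjusted p = 0.00783) and was higher on HFD in CL mice (0.66, SE 0.20, adjusted p = 0.0134). The call of the fall was lost without chow control replicate 3 (-0.51, adjusted p = 0.0516) and with only the libraries of the comparison (adjusted p = 0.0548). The 5 genes higher on HFD in C-3BO mice were *Cyc1* (0.27), *Cox7c* (0.64), *Cox8b* (0.48), *Atp5b* (0.38) and *Atp5l* (0.54). The call of *Cox8b* was lost without HFD C-3BO replicates 4 and 5, at 0.28 (adjusted p = 0.341), and without any 1 of 7 libraries (chow C-3BO 1, 2, 4 and 5, HFD C-3BO 2, 4 and 5).

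Transcript length moved with this pattern over all genes. Among the 231 tested genes of at most 600 counted bases, the median log2 fold change between HFD and chow control mice was -0.34 and 35.1% were lower, and among the 1227 genes of more than 600 and up to 1200 bases the median was -0.21 and 29.01% were lower. Longer genes had a median of 0.03 with 15.9% lower. The respiratory genes in the same ranges, here all 47 tested genes, had medians of -0.54 (15 of 20 lower), -0.41 (10 of 16) and -0.16 (3 of 11). The 11 longest include *Atp5s* and *Atp5sl*, which encode no subunit. In C-3BO mice, genes of at most 600 bases had a median of -0.02, and the respiratory genes among them -0.10. In CL mice these medians were -0.18 and -0.37, and in saline mice -0.13 and -0.23. Of the 20 respiratory genes of this length, 12 were lower in CL and 6 in saline mice. Of the 11 over 1200 bases, 0 were lower in either. Muscle markers moved in the same direction (12 of 12 lower on HFD in control mice), and their summed level in control mice did not overlap between the diets (984 to 11948 CPM on chow, 6.48 to 278 CPM on HFD), so muscle level and diet can hardly be told apart there. With muscle level as a covariate 13 of the 47 genes were called lower, and a lost call does not show that a change was removed: *Cox8a* went from -0.98 to -0.73, *Uqcrq* from -0.95 to -0.76 and *Cycs* from -0.67 to -0.58 (adjusted p = 0.178). The part of length in the diet difference was not tested. Rises also differed by length between treated and control mice. In HFD C-3BO mice 26.8% of all genes of at most 600 bases rose, and 18.8% of those over 1200. Of the respiratory genes in these ranges, 11 of 20 and 9 of 11 rose, and the 2 longer genes that did not were *Atp5s* and *Atp5sl*. In chow C-3BO mice all 4 rises were among those 11. With CL, 9 of the 11 rose on each diet, against 7 of the 20 on chow and 3 on HFD. The part of length in these counts was not tested.

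**Figure D5:**
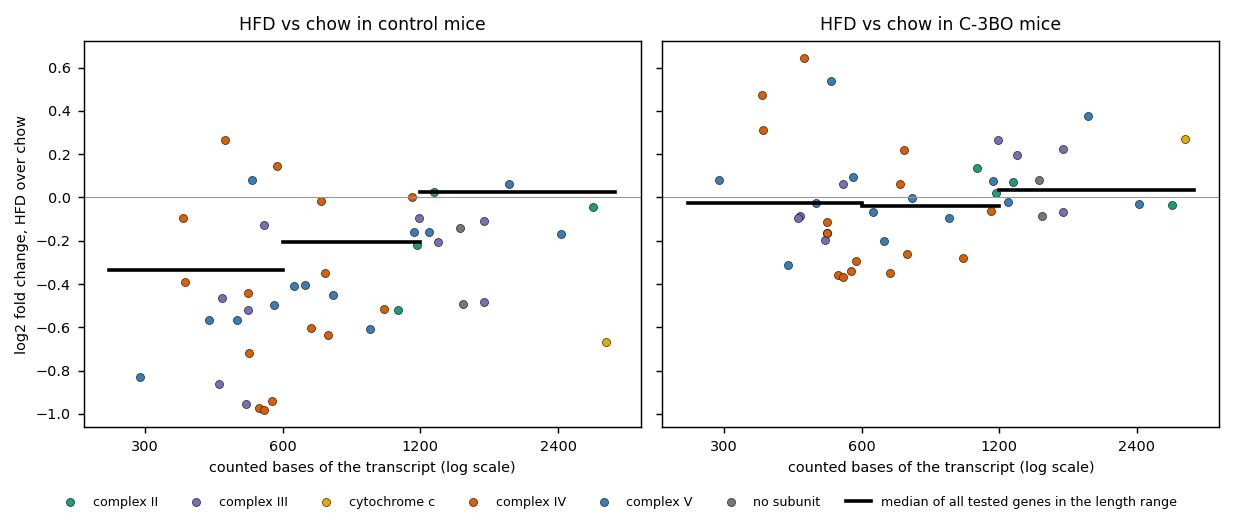
Log2 fold change of HFD over chow (y axis) against the counted bases of the transcript (x axis, log scale) for 44 tested genes, in control mice (left) and C-3BO mice (right), coloured by complex, with black lines for the median of all tested genes in 3 length ranges. In control mice the shorter transcripts lie lower, down to -0.98 for *Cox8a*, and the line of the shortest range lies at -0.34, against -0.02 in C-3BO mice.

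Whether the C-3BO and CL effects differed between diets or from each other was tested directly. For 6 of the 47 genes the C-3BO effect was greater under HFD feeding (*Sdhb*, *Uqcrq*, *Uqcr11*, *Atp5d*, *Atp5h* and *Atp5k*, given above), where 2.08% of all tested genes were called in either direction. Of the 47 log2 differences, 45 were above 0, with a median of 0.38. HFD control mice enter this difference with their lower levels. The count fell to 1 without HFD C-3BO replicates 4 and 5 and was 13 with DESeq2. It was 13 without chow C-3BO replicate 3 and 12 without HFD control replicate 4, but 1 to 3 without chow control replicate 1, 3 or 4, chow C-3BO replicate 1, 2, 4 or 5, HFD control replicate 1, 2 or 3, or HFD C-3BO replicate 2, 3, 4 or 5. The CL effect differed between diets for 0 of the 47 (0.0151% of all genes), with 2 at an unadjusted p under 0.05 and 0 with DESeq2, and its median difference was 0.04.

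On chow, the C-3BO effect was lower than the CL effect for 6 genes (*Sdhb*, *Cox4i1*, *Cox6c*, *Cox7a1*, *Cox7c* and *Atp5h*), where 6.24% of all genes were called, and 44 of the 47 differences were below 0 (median -0.30). The count was 14 without chow C-3BO replicate 3 and 10 without chow saline replicate 5. On HFD, 0 of the 47 were called (1.8% of all genes), with 1 at an unadjusted p under 0.05 and 0 with DESeq2. The median difference on HFD was 0.01, with a range over the genes of -0.74 to 0.60, which does not show that the effects were equal. These tests cross the cohorts, each of which had its own controls.

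Other genes of the same pathway were counted beside these. Complex I, which feeds electrons from NADH, had 36 tested subunit genes, of which 15 rose with CL on chow, 13 with CL on HFD and 20 in HFD C-3BO mice, while 4 fell in chow C-3BO mice. The shares of all tested genes that rose were 9.16% with CL on chow, 12.7% with CL on HFD, 15.8% in chow C-3BO and 19.3% in HFD C-3BO mice, and 15.9% fell in chow C-3BO mice, so the 4 falls of 36 lie below the share of all genes. *Ndufs7*, an iron-sulphur subunit, was at -0.50 in chow C-3BO mice (SE 0.12, edgeR adjusted p = 0.00154), and *Ndufs8*, another, at 0.75 in HFD C-3BO mice (SE 0.12, adjusted p = 5e-06). Between the diets, 28 of the 36 were lower on HFD in control mice. Of 28 tested assembly factors of complexes II to V, 13, 16, 11 and 18 rose (CL on chow, CL on HFD, C-3BO on chow, C-3BO on HFD) and 2, 3 and 1 fell in the latter comparisons, with 0 for CL on chow. These falls lie below the 10.8%, 15.9% and 15.5% of all tested genes that fell. *Higd1a*, which binds complex IV, rose most in HFD C-3BO mice (1.22, SE 0.15, adjusted p = 8.23e-08). In chow C-3BO mice *Atpif1*, the inhibitor of ATP synthase, fell (-0.87, SE 0.21, adjusted p = 0.00139) and *Atpaf2*, an assembly factor of its F1 head, rose (0.78, SE 0.11, adjusted p = 8.42e-07).

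Marker lists of other tissues were counted in the same comparisons. Of 12 skeletal muscle markers, 11 fell with CL on chow and 0 were called in the other 3 comparisons of treated with control mice, and all 8 liver and 2 testis and epididymis markers tested were higher in HFD C-3BO mice, where replicates 4 and 5 carry them. Of 10 brown adipocyte markers, 4, 4, 5 and 4 rose and 1, 0, 1 and 0 fell in the order CL on chow, CL on HFD, C-3BO on chow and C-3BO on HFD. Over all tested genes, 9.16%, 12.7%, 15.8% and 19.3% rose and 6.13%, 10.8%, 15.9% and 15.5% fell in this order. Of 14 genes of the TCA cycle, which supplies succinate to complex II, 12, 13, 9 and 10 rose and 0, 1, 1 and 1 fell in that order of comparisons. *Sucla2*, a subunit of succinyl-CoA ligase, rose in chow C-3BO mice by 0.70 and in HFD C-3BO mice by 0.73, and *Idh2*, an isocitrate dehydrogenase, fell in chow C-3BO mice (-0.60). Of 16 regulators of mitochondrial genes, 4, 4, 3 and 6 rose, of which the 3 in chow C-3BO mice are near the 15.8% of all genes. Those that fell were 1 with CL on HFD, 1 in chow C-3BO and 2 in HFD C-3BO mice, each below the share of all genes. *Gabpa*, the DNA-binding subunit of GABP (NRF2), rose with CL on chow (0.63) and in chow C-3BO mice (0.84), while *Ppargc1b*, a coactivator, fell with CL on HFD (-0.87). The largest called change of this list in C-3BO mice was that of *Esrrb*, at -0.84 on chow and 0.85 on HFD. Its group means in that cohort were only 2.55 to 4.95 CPM. In chow C-3BO mice, TCA cycle genes and assembly factors were called higher in 9 of 14 and 11 of 28 cases. Of the 47 subunit and related genes 4 were called higher, and of all tested genes 15.8%. These sets were not matched for transcript length. In this comparison 3.9% of all genes of at most 600 counted bases rose, and 16.8% of those over 1200. The 4 rises of the 47 were all among the 11 genes over 1200 bases. The part of length in this contrast was not tested.

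Promoters of 38 of the 49 genes were matched in RefSeq (GRCm38.p6), as 250 bases before to 50 after the start, and searched on both strands for letters typical of 4 factors known to act on respiratory genes. The NRF1 letters GCGCANGCG occurred in 12 of the 38 (31.6%) against 6.25% of all 32851 promoters, and the GABP letters CCGGAAG in 11 (28.9%) against 8.86%. The letters TNAAGGTCA of the oestrogen-related receptors occurred in 2 (5.26% against 1.28%) and AANATGGCG of YY1 in 3 (7.89% against 2.38%). Where 1 of the 38 genes had more than 1 promoter, the first was taken, while the share over all promoters counted every entry of each gene. The sets were not matched for base content. No promoter was matched for *Sdhc*, *Cyc1*, *Uqcrb*, *Uqcrc2*, *Uqcrq*, *Cox4i1*, *Cox4i2*, *Cox6a2*, *Cox6c*, *Cox8c* and *Atp5a1*. The 250 bases before the start are shown for *Sdha*, called in all 4 comparisons, *Cycs*, with the largest rise in HFD C-3BO mice, and *Cox7a1*, an isoform whose ratio to its partner changed in 3 comparisons, which held none of the 4 motifs. Capitals mark NRF1 letters on either strand (3 in *Sdha* at chr13:74350241-74350490 on the minus strand, 1 in *Cycs* at chr6:50566570-50566819 on the minus strand), and *Cox7a1* lies at chr7:30183921-30184170 on the plus strand of GRCm38.p6. A match of letters is a description and not a bound site.
Sdha: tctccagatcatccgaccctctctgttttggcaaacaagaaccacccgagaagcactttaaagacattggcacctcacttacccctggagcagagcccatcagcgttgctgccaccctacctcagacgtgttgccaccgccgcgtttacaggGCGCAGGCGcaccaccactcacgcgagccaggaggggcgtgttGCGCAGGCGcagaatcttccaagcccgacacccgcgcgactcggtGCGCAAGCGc
Cycs: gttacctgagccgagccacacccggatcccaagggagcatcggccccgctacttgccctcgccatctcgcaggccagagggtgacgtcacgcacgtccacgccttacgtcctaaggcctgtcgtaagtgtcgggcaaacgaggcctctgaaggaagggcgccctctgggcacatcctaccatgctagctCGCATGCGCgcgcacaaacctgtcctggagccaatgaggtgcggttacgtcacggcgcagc
Cox7a1: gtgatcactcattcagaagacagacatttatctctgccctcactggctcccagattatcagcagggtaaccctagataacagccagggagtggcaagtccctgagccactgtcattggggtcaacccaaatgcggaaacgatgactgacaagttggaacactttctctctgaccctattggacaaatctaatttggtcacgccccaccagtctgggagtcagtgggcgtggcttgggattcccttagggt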

How the data were processed

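RNA from BAT of 40 male mice was sequenced as poly(A) libraries. Per the study's methods, the authors aligned reads with STAR to mm9 and counted exon reads per gene with iRNA-seq and HOMER. The values used are these deposited raw read counts, with no normalization. Strand setting, read length, filters and versions are not given in the sources used here, so overlapping and duplicated genes cannot be resolved.

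Genes with sufficient counts by edgeR's filterByExpr (minimum count 10) were kept, scaled by TMM and tested with edgeR 4.0.16 (R 4.3.3, limma 3.58.1, quasi-likelihood test) in 1 model of all 8 groups, at a Benjamini-Hochberg adjusted p under 0.05 over all 13277 tested genes. Totals of 849126 to 15260516 counts set the precision, which is lowest in HFD saline replicate 4. The labels give 5 mice per group. No columns were left unused, and no 2 libraries of a group agreed within sampling noise (lowest chi-square per degree of freedom 2.82 over 80 pairs).

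Isoform ratios were compared by exact two-sided permutation tests. Alternatives were DESeq2 1.42.0, RLE factors, library totals, no low-count filter, only the libraries of a comparison, a muscle covariate, leaving out libraries and a replicate block. Replicate numbers were not treated as pairs, since no comparison had a correlation over 0.1 in each of its 5 pairs. That rule cannot exclude pairing: C-3BO against control on chow had 3 of 5 pairs over 0.1, up to 0.43. Promoters came from RefSeq (GRCm38.p6). Genes named by rule were the isoform pairs, genes called beyond a log2 change of 1, the largest and smallest change per complex in HFD C-3BO mice, the 3 lowest adjusted p per difference of effects, the most abundant per complex and those failing the filter. For the other lists the rule was the 2 largest called changes, but only some of these are named. Other genes were named after their values were seen, to account for every member. The genes and lists were chosen with earlier results of these data known. The fit was tested on simulated data.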

Additional observations from a re-analysis of the deposited data

Results flagged for a closer look

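Among 176 groups of 5 mice examined for a single mouse far from the others by Dixon's criterion, 16 stood out, and chance alone would mark about 1 in 20. Chow C-3BO replicate 3 was the highest mouse of its group in 8 of them, with 167 CPM of *Atp5h*, 159 of *Atp5k*, 2543 of *Cox4i1*, 494 of *Cox7a1*, 446 of *Cox7a2*, 1590.1 of *Cox8b*, 892 of *Sdhc* and 1629 of *Uqcrq*. That library had the lowest TMM factor of all 40, 0.798, and the part of this in its values was not tested. The others were *Atp5b* in chow saline replicate 5 (9115 CPM), *Atp5g1* in HFD C-3BO replicate 5 (0.82 CPM), *Atp5g3* in HFD saline replicate 3 (214 CPM), *Cox6a2* in HFD control replicate 5 (1.55 CPM) and HFD saline replicate 3 (10.3 CPM), *Uqcr10* in HFD C-3BO replicate 2 (575 CPM) and *Uqcrfs1* in HFD saline replicate 5 (1112 CPM), each the highest of its group, and *Atp5k* in HFD C-3BO replicate 1 (67.1 CPM), the lowest.

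In 12 cases a difference between effects passed edgeR's test of that difference. Under HFD feeding the C-3BO effect exceeded that under chow by 0.66 (log2) for *Sdhb*, 0.76 for *Uqcrq*, 0.77 for *Uqcr11*, 0.51 for *Atp5d*, 0.59 for *Atp5h* and 0.91 for *Atp5k*. The C-3BO less CL difference on chow was -0.46 for *Sdhb*, -0.71 for *Cox4i1*, -0.67 for *Cox6c*, -0.85 for *Cox7a1*, -1.10 for *Cox7c* and -0.67 for *Atp5h*.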

How the results depend on the processing

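The depth of HFD saline replicate 4 limits rare isoforms most, and with 5 mice a group a difference missed by the test is not shown to be absent. Counts of the 47 genes that moved by over 1.5 times were as follows, and the cause was not tested. With library totals alone, CL on chow gave 12 higher and 3 lower, C-3BO on chow 2 and 27, and C-3BO on HFD 14 higher. HFD against chow gave 1 higher in control mice, 14 higher and 1 lower in C-3BO mice, 4 and 3 in saline mice and 4 and 7 in CL mice. The C-3BO difference between diets gave 14 and the C-3BO minus CL difference on chow 17. With only the libraries of a comparison, 0 fell with CL on chow, 3 fell with C-3BO on chow, 3 were higher on HFD in C-3BO mice and 2 in CL mice, and the 2 differences of effects gave 1 and 3. With the muscle covariate 2 fell with C-3BO on chow, 13 were lower on HFD in control, 0 in C-3BO and 6 in saline mice, and 2 were higher in CL mice. With no filter 3 were higher on HFD in C-3BO mice and the C-3BO difference between diets gave 2. Without HFD C-3BO replicates 4 and 5 these were 3 and 1. DESeq2 gave 2 higher on HFD in CL mice and 13 for the C-3BO difference between diets, and RLE factors gave 2 higher in CL mice.

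With the replicate block, a pairing that the check neither showed nor excluded, the C-3BO difference between diets gave 11 and the C-3BO minus CL difference on chow 10. No other count moved by over 1.5 times. Under the block the exact sign-flip test of ratios cannot go below 0.0625.

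Leaving out 1 library at a time, CL on chow gave 13 to 22 higher and 0 to 2 lower, CL on HFD 12 to 16 and 0, C-3BO on chow 3 to 5 and 1 to 10, and C-3BO on HFD 18 to 29 and 1. HFD against chow gave 0 higher and 25 to 31 lower in control mice, 2 to 7 and 1 to 6 in C-3BO mice, 0 and 6 to 15 in saline mice, and 1 and 8 to 15 in CL mice. The C-3BO difference between diets gave 1 to 13, the C-3BO minus CL difference 4 to 14 on chow and 0 on HFD, the CL difference between diets 0, and the ratio tests 5 to 7.

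With library totals alone the sign turned for *Atp5b* (C-3BO on chow, -0.036), *Atp5g2* (C-3BO on HFD, -0.082), *Atp5g3* (C-3BO on HFD, -0.041), *Atp5h* (CL on HFD, -0.12), *Cox7a1* (C-3BO on chow, -0.21), *Cox8a* (CL on HFD, -0.086), *Cox8b* (C-3BO on chow, -0.14), *Sdhc* (C-3BO on HFD, -0.069), *Uqcr10* (CL on HFD, -0.033). With the muscle covariate the sign turned for *Cox6a1* (CL on chow, 0.056), *Cox6a2* (CL on chow, 0.20), *Cox6a2* (CL on HFD, 1.16), *Cox6a2* (C-3BO on chow, 0.14), *Cox6a2* (C-3BO on HFD, 0.93), *Cox6a2* (diet in C-3BO mice, 0.26). With the replicate block the sign turned for *Atp5g2* (C-3BO on HFD, -0.013), *Cox6a2* (CL on HFD, 0.23). With DESeq2 the sign turned for *Cox7a1* (C-3BO on chow, -0.0056). With RLE factors the sign turned for *Cox7a1* (C-3BO on chow, -0.0056). Leaving out 1 library at a time, values lay on both sides of 0 for *Atp5g1* (CL on HFD, -1.62 to 0.24), *Atp5g2* (C-3BO on HFD, -0.33 to 0.29), *Atp5h* (CL on HFD, -0.0020 to 0.062), *Cox4i2* (CL on HFD, -0.30 to 0.11), *Cox6a1* (CL on HFD, -0.094 to 0.041). The same held for *Cox6a1* (CL on chow, -0.23 to 0.11), *Cox6a2* (C-3BO on HFD, -1.50 to 3.496), *Cox6a2* (CL on HFD, -1.20 to 2.02), *Cox7a1* (C-3BO on chow, -0.13 to 0.12), *Cox8b* (C-3BO on chow, -0.073 to 0.26), the *Cox4i2* to *Cox4i1* ratio (C-3BO on chow, -0.24 to 0.029). Of these, *Cox6a2* with CL on chow, in chow C-3BO mice and for diet in C-3BO mice had been called.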
